A study of Mus musculus with 3 samples.

Results

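Crystallins are the proteins that fill the lens, and several of them are also made outside it. The genes described here are Cryaa, Cryab, Cryba1, Cryba2, Cryba4, Crybb1, Crybb2, Crybb3 and Crygs, chosen by name as rows of the count tables of dissociated mouse retina. Of these 9, 8 have a row among the 24071 genes of the tables, and Cryaa is not analysed here. Cryab and Cryaa encode the α-crystallins, small heat-shock proteins that hold unfolding proteins in solution. The β-crystallins (Cryba and Crybb genes) and the γ-crystallins, with Crygs among them, are structural proteins of the lens fibre that share a fold of repeated Greek key motifs. In the retina the best known site of αB-crystallin is the glia, among them the Müller glia, which span the whole thickness of the tissue and support its neurons.

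The study compared retinas of mice at P26 in 3 groups of 1 library each. The treated KO group carried the Tspan12 KO and received intraperitoneal F4L5.13, with doses of 10 mg/kg given on P6, P9 and P12 followed by 4 mg/kg at intervals of 3 days, the KO group carried the Tspan12 KO without it, and the WT group was labelled wild type. All 3 groups carry the strain label Tspan12tm1.2Hjug, the WT library included. TSPAN12 is the tetraspanin that assists Norrin signalling through FZD4 in retinal vessels, and F4L5.13 is an antibody that activates that receptor complex without the ligand. By the labels, CD73 beads took out photoreceptors and Annexin V beads took out dying cells before loading, and the labels do not say how many retinas or mice entered a library.

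With 1 library per group there is no replicate and no test between groups, so all differences given here compare one library with another, and each interval covers counting error only. The treated KO, KO and WT libraries held 9835, 10769 and 6092 barcodes, of which 8215, 9357 and 5785 cells were kept, with a median of 6588, 7351 and 14797 reads per barcode. Pairs of libraries shared between 15 and 31 barcodes. Tspan12, the targeted gene, was at 14.8 CPM in treated KO, 17.6 CPM in KO and 27.2 CPM in WT cells (reads of the gene per 1000000 reads of the cells summed), so its tags were lower but not absent in both KO libraries. The sources used here do not say whether 3′ tags fall inside the deleted part of the gene, so that level does not check the labels. The class mix differed: rods were 42.4% of kept cells in treated KO, 40.8% in KO and 3.73% in WT, and Müller glia were 15.6%, 14.6% and 29.4% in the same order of libraries. In such data fewer cells of a type and less RNA per cell cannot be told apart at the level of all cells, so levels are given per cell class. Classes were named from marker genes, and the Müller class carried its defining markers Glul at 6660, 6524 and 7920 CPM and Rlbp1 at 3043, 3214 and 3906 CPM in treated KO, KO and WT.

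The 8 genes lie on 5 chromosomes of GRCm38 (the build called mm10), in the positions of the GENCODE M21 annotation. Cryab spans chromosome 9, 50751325 to 50756636, on the plus strand, and it overlaps Hspb2 on the minus strand. Whether the counting used strand is not stated, so reads of the 2 genes cannot be told apart. Hspb2 was at 10.1, 7.25 and 11.7 CPM in treated KO, KO and WT Müller glia, with 91.9 or more Cryab reads for each of its reads, but at 192, 276 and 52.5 CPM in mural cells. Cryba4 (chromosome 5, 112246493 to 112252518, minus strand) and Crybb1 (chromosome 5, 112255815 to 112269585, plus strand) are divergent neighbours 3297 bases apart. Crybb2 (113058258 to 113070117) and Crybb3 (113075839 to 113081584) lie on the minus strand of the same chromosome, 5722 bases apart, and Crybb2 overlaps the gene model Gm43247. Cryba1 is on chromosome 11 (77718615 to 77725283, overlapping Nufip2), Cryba2 on chromosome 1 (74889934 to 74893143) and Crygs on chromosome 16 (22805203 to 22811577), all on the minus strand.

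The start regions of 3 genes are shown because their levels separate cell classes below: Crybb1 and Cryba4 are high in the same cells, whereas Crybb3, next to Crybb2, is high in others. The RefSeq table (GRCm38.p6) gives a window from 250 bases before to 50 bases after the gene start for 8 of the 9 named genes. The 3 windows are chr5:112255570-112255869 on the plus strand for Crybb1, chr5:112252469-112252768 on the minus strand for Cryba4 and chr5:113081535-113081834 on the minus strand for Crybb3. Each is written 5′ to 3′ on the strand of its gene, and capitals mark TGCTGAC.
Crybb1: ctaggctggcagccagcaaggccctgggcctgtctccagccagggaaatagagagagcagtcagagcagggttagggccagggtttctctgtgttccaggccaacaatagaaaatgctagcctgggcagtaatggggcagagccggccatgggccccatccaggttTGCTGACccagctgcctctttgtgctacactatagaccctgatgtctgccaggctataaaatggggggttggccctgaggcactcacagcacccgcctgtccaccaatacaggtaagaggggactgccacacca
Cryba4: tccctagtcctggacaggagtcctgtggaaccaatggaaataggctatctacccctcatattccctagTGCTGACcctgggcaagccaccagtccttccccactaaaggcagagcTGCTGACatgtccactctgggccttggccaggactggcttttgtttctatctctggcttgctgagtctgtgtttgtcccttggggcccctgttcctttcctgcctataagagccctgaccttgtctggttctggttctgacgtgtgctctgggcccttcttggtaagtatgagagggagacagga
Crybb3: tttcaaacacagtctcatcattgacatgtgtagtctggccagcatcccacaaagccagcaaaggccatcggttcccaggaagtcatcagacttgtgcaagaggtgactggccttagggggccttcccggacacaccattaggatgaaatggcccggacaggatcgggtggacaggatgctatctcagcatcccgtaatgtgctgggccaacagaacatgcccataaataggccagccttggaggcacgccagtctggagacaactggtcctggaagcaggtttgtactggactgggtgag
TGCTGAC is the core of the element bound by Maf factors, regulators of crystallin genes in the lens. It was searched on both strands and occurred in 4 of the 8 windows: once each in Cryaa, Cryba1 and Crybb1 and 2 times in Cryba4. Of 32851 promoter windows of the same length, 4.67% hold it. The letters GAGGAAGT, a form of the site of the myeloid factor PU.1, were searched in the same way and are in none of the 8 windows, and 3.2% of all windows hold them. These 2 strings do not overlap, and a match is a description of the letters only.

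Cryab made up nearly all crystallin reads of the retina, and it was a gene of glia. Over all kept cells it had 404 CPM in treated KO, 603 CPM in KO and 421 CPM in WT, and it gave 96.8%, 95.1% and 97.1% of the reads of the 8 genes. In Müller glia it stood at 1162 CPM in treated KO (1280 cells), 1672 CPM in KO (1368 cells) and 1071 CPM in WT (1700 cells). A read of it was found in 97.3%, 99.1% and 99.7% of Müller cells (median depth 23602, 27382 and 19446 reads), against 6.06%, 8.07% and 4.5% of cones (12516, 10902 and 12015 reads), a photoreceptor class not named from glial markers. Astrocytes followed with 653, 713 and 633 CPM in 22, 26 and 47 cells, and mural cells with 303, 351 and 699 CPM in only 6, 12 and 3 cells, where the overlapping Hspb2 is also high, with 1.58, 1.27 and 13.3 Cryab reads for each of its reads. The order of the classes was the same in treated KO and KO down to the bipolar cells: Müller glia, astrocytes, mural cells, endothelial cells (55.2, 63.3 and 74.6 CPM in treated KO, KO and WT) and bipolar cells (37.2, 47.6 and 29.7 CPM). In WT the astrocyte and mural intervals overlap, as do those of endothelial cells and bipolar cells in KO, where only 3 endothelial cells were kept.

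**Figure D1:**
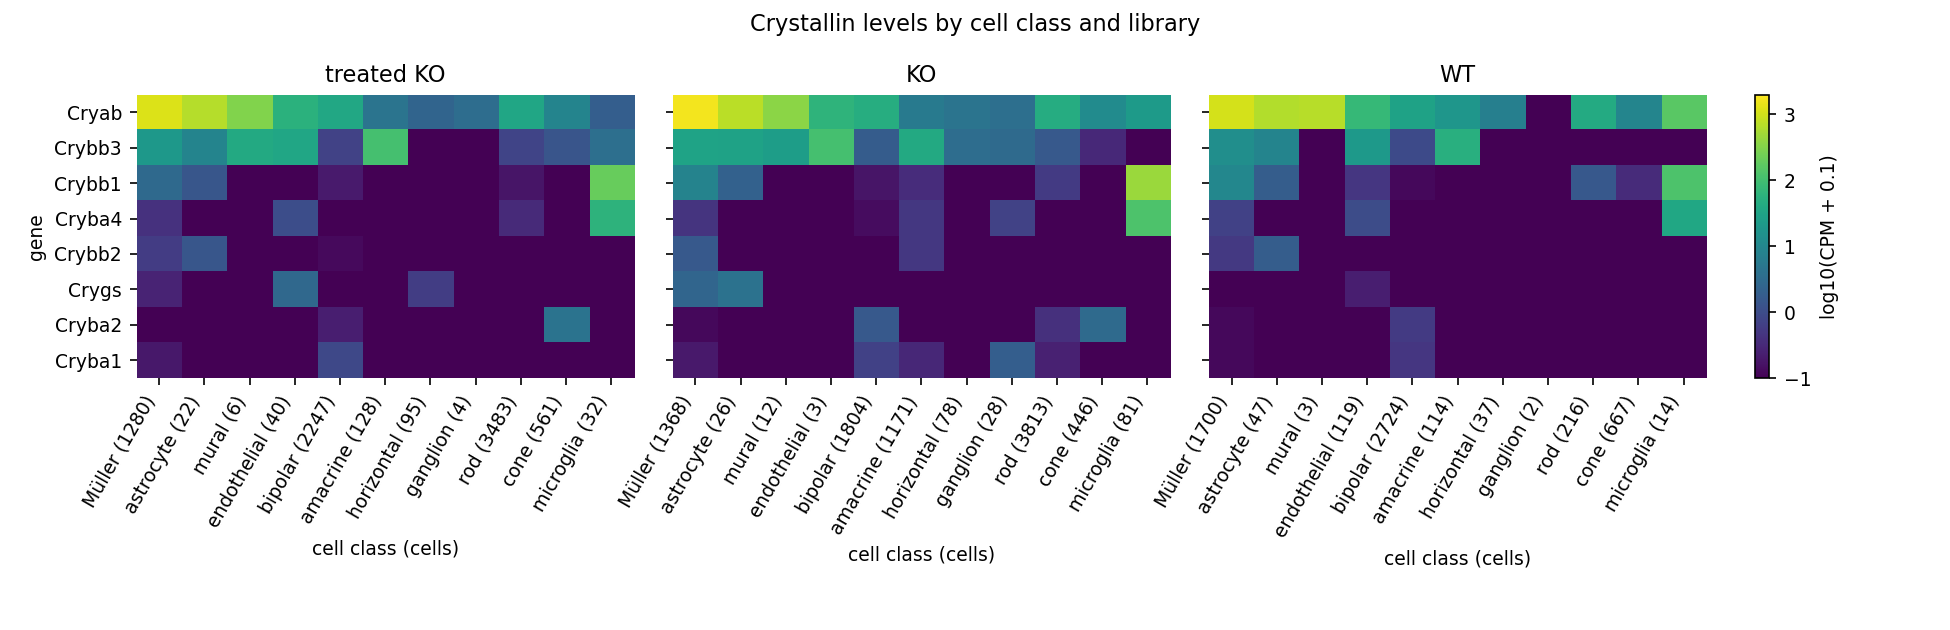
Colour gives log10(CPM + 0.1) of each of the 8 crystallin genes (rows) in each cell class (columns, number of cells in brackets) in the treated KO, KO and WT libraries. Cryab is brightest in Müller glia, from 1071 to 1672 CPM, Crybb1 and Cryba4 are brightest in microglia, and Crybb3 reaches 109 CPM in treated KO amacrine cells.

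The KO Müller glia had the highest Cryab level, and the treated KO glia lay near WT. The ratio was 0.69 for treated KO over KO (95% interval 0.68 to 0.71), 1.56 for KO over WT (1.53 to 1.59) and 1.08 for treated KO over WT (1.06 to 1.11). None of the 3 met the rule of size used here, which asks for 2-fold or more either way, 30 or more molecule equivalents (reads divided by an estimate of the reads given by 1 molecule) in whichever library is higher, and an interval whose end nearest to 1 still lies beyond 1.5-fold. On reads per cell the same comparison gave 31.7 in treated KO, 49.1 in KO and 24.6 in WT, a ratio of 1.996 for KO over WT. That scale moves with the depth of the cells, whose median was lowest in WT. After each cell was thinned to 2000 reads, 83.3%, 90.8% and 82.3% of treated KO, KO and WT Müller cells still had a Cryab read, and 13, 19 and 0 shallower cells were left out.

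The Müller class holds 5 clusters that the libraries fill unequally. The KO level stood above WT in clusters 4, 6 and 15, and in cluster 2 the intervals of KO (1184 to 1383 CPM) and WT (1185 to 1231 CPM) overlapped. Cluster 6, led by Ndufa4l2, Apln and Adm, genes known to rise in low oxygen, held 82 treated KO, 689 KO and 18 WT cells and had 1685, 2054 and 1301 CPM of Cryab. Cluster 2, led by Hes5, Etnppl and Prss56, held 617, 54 and 1260 cells and had 1404, 1281 and 1208 CPM. In cluster 4, which the libraries share most evenly (345, 394 and 334 cells), the values were 1073, 1514 and 921 CPM. Within cluster 4 the ratio was 0.71 for treated KO over KO, 1.64 for KO over WT (1.58 to 1.71) and 1.17 for treated KO over WT. Cluster 15, whose cells also carry 6 cone markers, had 761, 1160 and 673 CPM in 143, 168 and 85 cells. Cluster 2 is the exception to the order, since its treated KO cells stood above its KO cells.

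**Figure D2:**
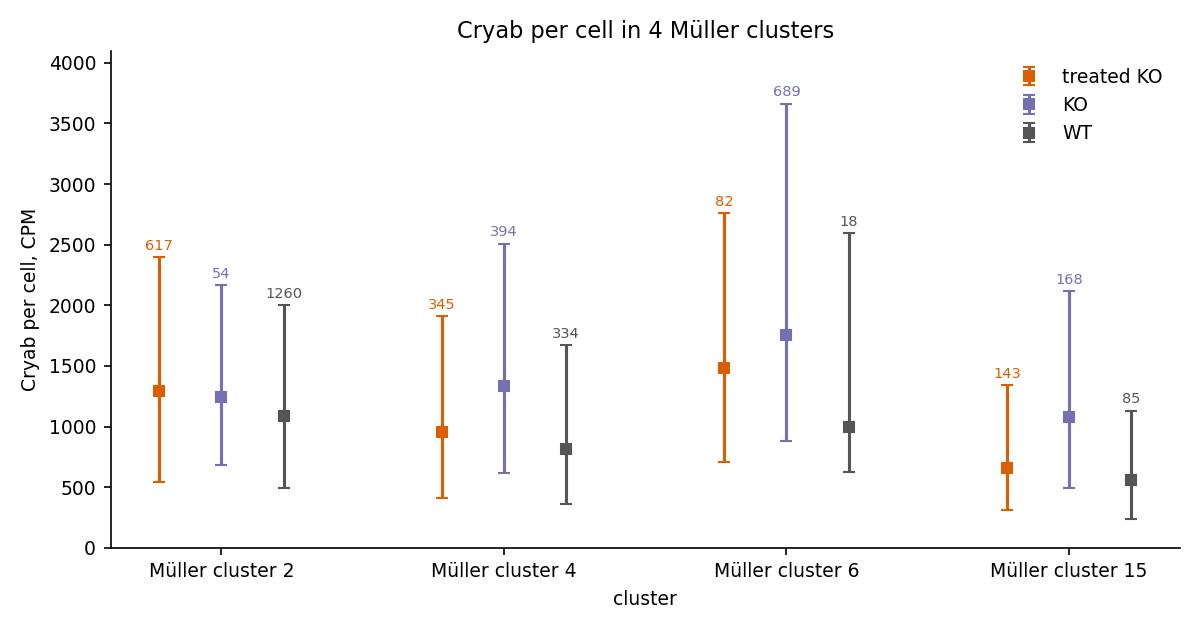
Squares give the median Cryab level per cell in CPM and bars run from the 10th to the 90th percentile of cells in 4 Müller clusters of the treated KO, KO and WT libraries, with the number of cells above each bar. KO medians of 1332, 1752 and 1076 CPM stand above both other libraries in clusters 4, 6 and 15, while in cluster 2 the 3 medians lie between 1086 and 1295 CPM, and the ranges of cells overlap everywhere.

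Single Müller cells spread over a wider range than the library levels. In the KO Müller class the 10th percentile, median and 90th percentile of cells were 677, 1492 and 3156 CPM, against 418, 1082 and 2293 CPM in treated KO and 421, 1007 and 1936 CPM in WT. Cells without any Cryab read numbered 35 of 1280 in treated KO, 12 of 1368 in KO and 5 of 1700 in WT.

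Cryab reads also appeared in neurons, at a low number per barcode that differed between classes. Rods without cluster 20, described below, held 0.0317, 0.0698 and 0.127 reads per cell in treated KO, KO and WT, the last from 55 cells. Amacrine cells held 0.0859, 0.0991 and 0.289 reads per cell in treated KO, KO and WT, cones 0.0998, 0.123 and 0.112, and horizontal cells 0.147, 0.231 and 0.378. Barcodes that failed the filters held 0.0686 and 0.0906 reads in treated KO and KO, while the 11 such barcodes of WT held 5 reads, all in 1 barcode. In the WT amacrine cells 28 of the 33 reads came from the 26 cells of cluster 25, and the other 88 cells held 0.0568 reads per cell. Müller glia held 24.6 to 49.1 reads per cell. Low values of this kind, in classes not named from glial markers and in barcodes that failed the filters, are taken here as the level of the whole library. A class is described as having Cryab of its own only where it stands above them. Glul, a Müller marker, was also read in horizontal cells, with 1147 reads in 95 treated KO cells and 1046 in 78 KO cells. These cells had 0.0122 and 0.0172 Cryab reads per Glul read, against 0.174 and 0.256 in Müller glia of the same libraries. Whether the Glul reads come from glia was not tested, and these classes are not known to be free of glial reads.

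**Figure D3:**
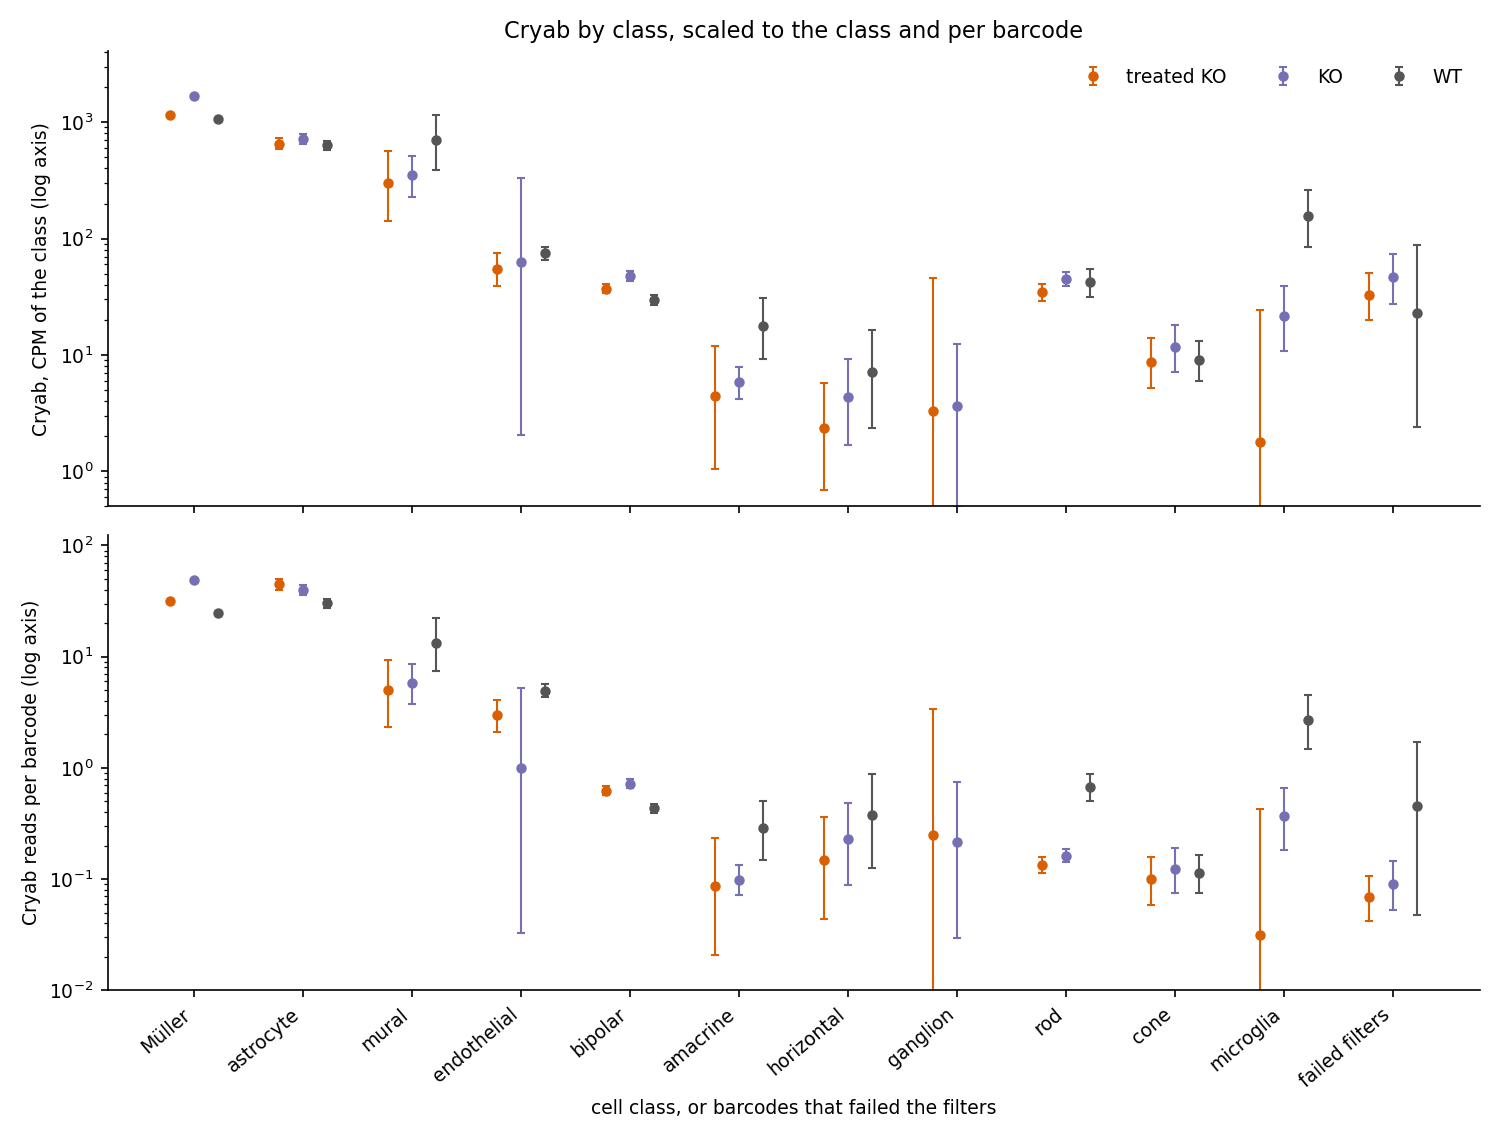
Points give Cryab by class in treated KO, KO and WT as CPM of the class (upper panel) and as reads per barcode (lower panel), both on log axes, with exact Poisson 95% intervals for counting error, cut off at the lower end of the axis. Müller glia and astrocytes lie at 633 CPM and 24.6 reads per cell or more, while cones, amacrine and horizontal cells and failed barcodes lie between 0.0686 and 0.455 reads per barcode.

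Most of the Cryab reads of the rod class sat in 1 small cluster, with 358 of 465 reads in treated KO, 358 of 620 in KO and 139 of 146 in WT. The rod class had 34.6, 45.2 and 42.3 CPM in treated KO, KO and WT, and without cluster 20 it had 9.17, 20.2 and 19.5 CPM, beside 8.76, 11.8 and 9.1 CPM in cones. Cluster 20, with 108, 61 and 161 cells, had 202, 470 and 44.9 CPM of Cryab, and the Müller genes stood beside it in the same order, Glul at 568, 1063 and 175 CPM and Rlbp1 at 405, 915 and 124 CPM. Cryab per Rlbp1 read was 0.499, 0.514 and 0.362 in cluster 20, against 0.382, 0.52 and 0.274 in Müller glia of the same libraries. The part of Müller RNA in the rod values was not tested further. The WT rod class without cluster 20 holds only 55 cells.

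Set against Rlbp1, a gene of Müller glia, Cryab was more abundant in bipolar cells than in rods or cones. Bipolar cells had 3.79, 3.92 and 2.15 Cryab reads per Rlbp1 read in treated KO, KO and WT. Rods had 0.507, 0.574 and 0.373, cones 0.394, 0.663 and 0.385, and doublets 0.382, 0.463 and 0.26. With Glul in place of Rlbp1 the difference was smaller, with 0.363, 0.591 and 0.3 Cryab reads per Glul read in bipolar cells and 0.174, 0.256 and 0.135 in Müller glia. Rods had 0.274, 0.341 and 0.258 Cryab reads per Glul read and cones 0.138, 0.268 and 0.153. The intervals of bipolar cells and rods overlapped in treated KO and WT. Without cluster 13, described below, bipolar cells had 0.273, 0.481 and 0.214. In KO their interval (0.424 to 0.546) stayed above that of all rods (0.292 to 0.398), while in treated KO and WT the intervals overlapped. Rods without cluster 20 had 0.155 (0.104 to 0.223) in treated KO and 0.26 (0.205 to 0.327) in KO. Both lay below bipolar cells without cluster 13 (0.241 to 0.31 in treated KO). The contrast with rods thus depends on the marker and on the clusters kept on both sides. Amacrine cells lay below the Müller proportion on that scale, at 0.0369, 0.0433 and 0.0932, with overlapping intervals in WT. By the rule for a class above the level of its library (CPM and reads per cell both at least 2 times the median of the other classes with at least 50 cells, at least 30 molecule equivalents, and a lower bound above 1.5 times that median), bipolar cells passed in treated KO and KO. In WT they were at 29.7 CPM and did not pass. The median of the other classes was 8.76 CPM in treated KO, 16.8 CPM in KO and 42.3 CPM in WT, where it was the level of the rod class. WT cones were at 9.1 CPM. The classes behind that median differ between libraries, so passing or not does not compare the bipolar cells of one library with those of another.

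**Figure D4:**
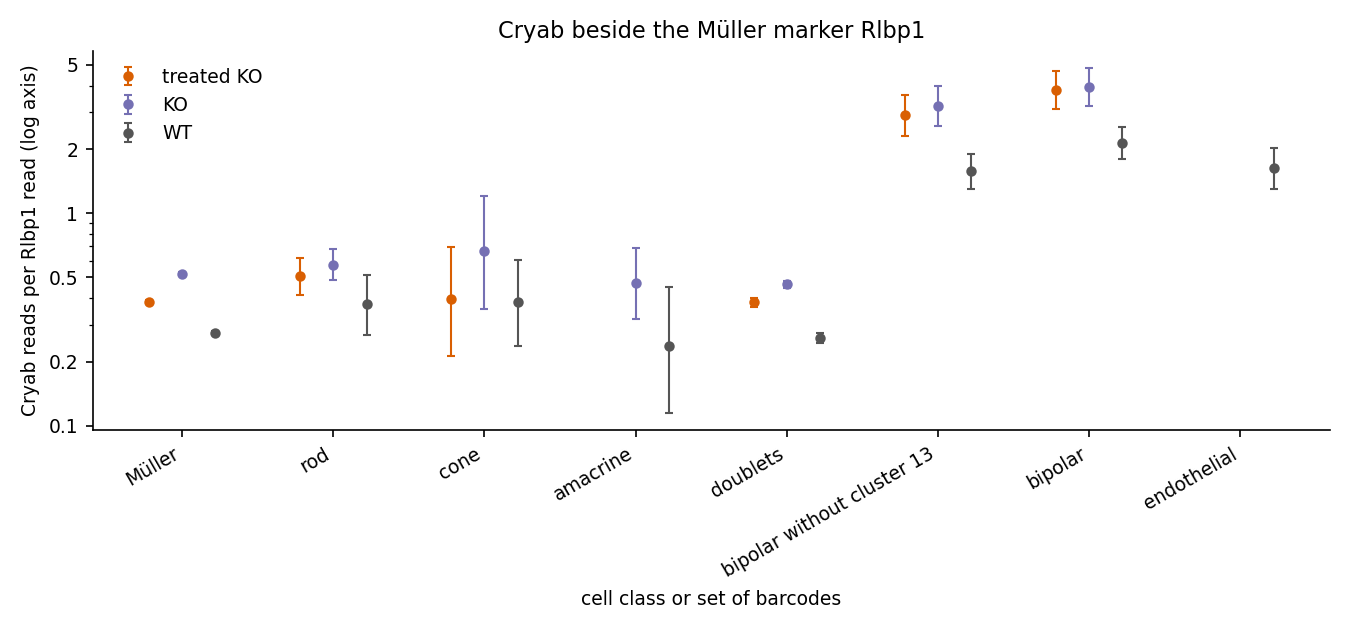
Points give the number of Cryab reads for each read of Rlbp1, a Müller gene, in classes with at least 50 cells of the treated KO, KO and WT libraries, on a log axis with exact 95% intervals for counting error. Müller glia, rods, cones, amacrine cells and doublets lie between 0.237 and 0.663, while bipolar cells, with or without cluster 13, lie between 1.58 and 3.92 and WT endothelial cells at 1.63.

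Most of the bipolar signal sat in a few of the 18 bipolar clusters. Cluster 13, led by Htr3a, Hs3st4, Neurod2 and Kcng4, of which Htr3a and Kcng4 are known from ON cone bipolar cells, had 229 CPM in treated KO (144 cells), 288 CPM in KO (94 cells) and 198 CPM in WT (197 cells). Rlbp1 in the same cluster was at 11.7, 15 and 25.8 CPM, in an order opposite to that of Cryab between KO and WT. Reads were found in 59.7%, 63.8% and 46.7% of its cells. Cluster 11, led by Reln, Cck and Vsx1, had 66, 78 and 33.4 CPM, and cluster 10, led by Grik1, Otor and Slitrk6, had 43.5, 57.7 and 33.5 CPM. The largest bipolar cluster, cluster 3, had 2.29, 9.41 and 3.81 CPM in 704, 572 and 638 cells, at 0.0284, 0.0944 and 0.0423 reads per cell. In KO it had 0.54 Cryab reads per Rlbp1 read, near the 0.52 of Müller glia. Over the whole class the ratio of Cryab was 0.78 for treated KO over KO (0.68 to 0.89), 1.6 for KO over WT (1.4 to 1.83) and 1.25 for treated KO over WT (1.09 to 1.43), and none met the rule. Cryab was the 1 member measured in that class, and 0.929% and 2.15% of genes were past the rule upwards and downwards for treated KO over KO, 1.87% and 0.819% for KO over WT, and 0.179% and 0.436% for treated KO over WT.

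Endothelial cells passed the rule for a class above its library in WT, where 119 cells held 4.94 Cryab reads each and 74.6 CPM. The treated KO library held 40 and the KO library 3 such cells, too few for that rule. WT endothelial cells had 1.63 Cryab reads per Rlbp1 read and 0.184 per Glul read, against 0.274 and 0.135 in WT Müller glia. The overlapping Hspb2 gave 1 read there for 3.2 Cryab reads. Microglia had 1.79, 21.8 and 156 CPM of Cryab in treated KO, KO and WT, and 36 of the 38 WT reads came from 1 cell, in a class of 14 cells whose Glul stood at 1838 CPM.

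Crybb3 was the second crystallin by reads, and it was read in Müller glia, 1 amacrine cluster and endothelial cells. In Müller glia it was at 19.3 CPM in treated KO, 31.5 CPM in KO and 13.5 CPM in WT, with a read in 17.5%, 27.3% and 11.8% of cells, against 2 of 561, 1 of 446 and 0 of 667 cones. The ratio was 2.34 for KO over WT (1.97 to 2.79), which met the rule, 0.61 for treated KO over KO (0.52 to 0.72) and 1.44 for treated KO over WT (1.18 to 1.75), which did not. Müller clusters 2, 4, 6 and 15 all had more in KO than in WT, as in cluster 4, with 17, 30.6 and 9.26 CPM in treated KO, KO and WT. Its ratio for KO over WT in cluster 4 was 3.3 (2.26 to 4.96). With cells thinned to 2000 reads the class ratio was 2.15 (1.2 to 3.95) and no longer met the rule. Astrocytes had 8.58, 29.4 and 8.47 CPM in 22, 26 and 47 cells. Endothelial cells had 35.4 CPM in treated KO and 20.2 CPM in WT, and 16 of 40 and 55 of 119 of them had a read. The WT endothelial cells passed the rule for a class above its library and stood above the WT Müller glia.

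In amacrine cells Crybb3 was at 109 CPM in treated KO (128 cells), 40.8 CPM in KO (1171 cells) and 51.9 CPM in WT (114 cells). Cluster 25, led by AI593442, Cxcl14 and Lpl and with the GABA synthesis gene Gad2 among its leading genes, accounted for 270 of 273 reads in treated KO, 770 of 808 in KO and 94 of 96 in WT. Inside it Crybb3 reached 302, 172 and 176 CPM in 32, 202 and 26 cells, with a read in 24, 81 and 15 cells. All other amacrine cells had 1.87, 2.48 and 1.52 CPM. The ratio over the class was 2.68 for treated KO over KO (2.09 to 3.42), past the rule, where 0.39% of 9241 genes were past it upwards and 0.898% downwards. Crybb3 alone had at least 30 molecule equivalents in both libraries. Cryab had 3.48 in treated KO and 42 in KO. The class ratio also takes in the share of cluster 25, with 32 of 128 amacrine cells in treated KO and 202 of 1171 in KO. The parts of share and of level in it were not tested. Without the 5 cells with most crystallin reads in each library the ratio was 1.92 and no longer past the rule. Treated KO over WT gave 2.11 (1.41 to 3.22), not past the rule, where 0.364% of genes were upwards and 0.574% downwards, and 2.93 without 5 cells of each library. KO over WT gave 0.79 (0.55 to 1.15), where 0.887% and 0.654% of genes were past it, and turned to 1.52 without those cells. Rods, cones and bipolar cells had at most 1.65 CPM of Crybb3 in any library.

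Crybb1 and Cryba4 formed a pair in microglia, the resident macrophages of the retina. Crybb1 was at 201 CPM in treated KO (32 cells), 451 CPM in KO (81 cells) and 123 CPM in WT (14 cells), and Cryba4 at 59.2, 126 and 37 CPM in the same cells. The intervals of Crybb1 were 140 to 279, 394 to 514 and 61.6 to 221 CPM, so KO did not overlap either other library. A Crybb1 read was found in 21 of 32, 59 of 81 and 6 of 14 microglia, and 10, 35 and 1 of these cells had both genes. Crybb1 reads per Cryba4 read were 3.39 in treated KO (1.67 to 7.55), 3.57 in KO (2.69 to 4.8) and 3.33 in WT (0.916 to 17), the last from 9 Cryba4 reads. With fewer than 50 microglia in treated KO and WT no ratio between libraries is given, and over all kept cells the number of microglia enters the level. C1qa, which marks microglia, was at 8105, 11904 and 8563 CPM in these cells.

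Müller glia held Crybb1 with little Cryba4. Crybb1 was at 2.89 CPM in treated KO, 8.27 CPM in KO and 9.79 CPM in WT, from 101, 332 and 382 reads in 37, 117 and 162 cells. Cryba4 was at 0.315, 0.349 and 0.59 CPM, from 11, 14 and 23 reads, so Müller glia had 9.18 Crybb1 reads per Cryba4 read in treated KO (3.07 to 40.4), 23.7 in KO (9.94 to 73.6) and 16.6 in WT (8.33 to 38.2). Within a library the intervals of Müller glia and microglia were apart in KO and overlapped in treated KO and WT. C1qa was at 0.229, 0.947 and 0.0513 CPM in the Müller class. Crybb1 was thus at a lower level in treated KO than in both others, with a ratio of 0.35 over KO (0.23 to 0.52) and 0.3 over WT (0.19 to 0.44), both past the rule, while KO over WT was 0.84 (0.66 to 1.09). It was lower in treated KO than in KO in clusters 2, 4, 6 and 15, with 3.94, 2.7, 4.6 and 0.951 CPM in treated KO and 9.23, 7.39, 10 and 5.76 CPM in KO. Over the class it had 0.0789, 0.243 and 0.225 reads per cell, and the treated KO ratios no longer met the rule within cluster 4 alone (0.37 over KO and 0.33 over WT).

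**Figure D5:**
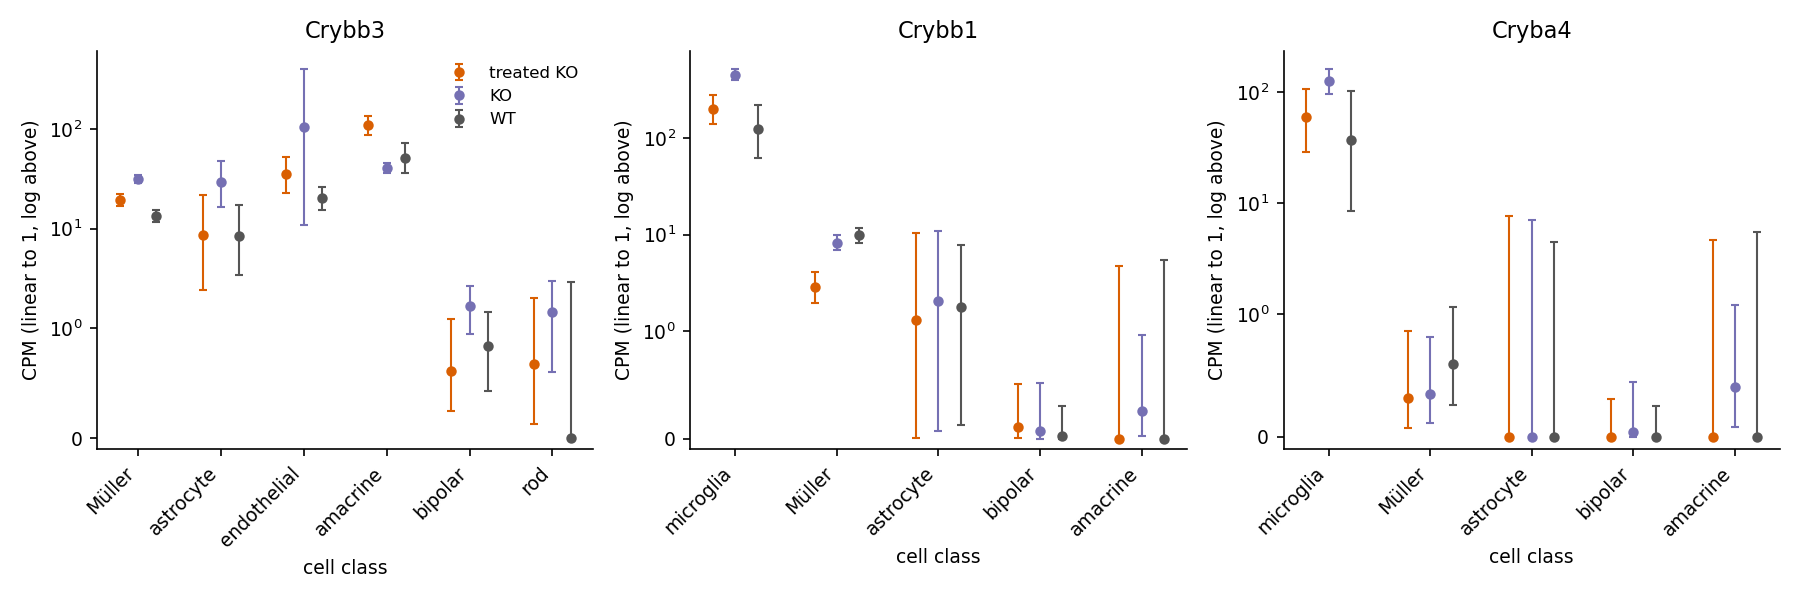
Points give the level of Crybb3, Crybb1 and Cryba4 in CPM by class in treated KO, KO and WT, with exact Poisson 95% intervals for counting error, on an axis that is linear to 1 and logarithmic above. Crybb1 and Cryba4 are highest in microglia, at 451 and 126 CPM in KO, and Crybb3 is highest, among the classes shown, in amacrine cells of treated KO and WT and in the 3 endothelial cells of KO.

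The remaining 4 genes were near the detection limit. Crygs, the γS-crystallin, had 99 reads in 11 KO Müller cells, against 6 reads in 2 treated KO cells, and 0 reads in 1700 WT cells, which allows up to 0.21 CPM (3 molecule equivalents in that library). KO stood at 2.47 CPM, and the lower end of the interval of its ratio to WT was 9.07. The 0.172 CPM in treated KO gave a ratio of 0.07 to KO (0.0075 to 0.28). Of the KO reads 79.8% came from 5 cells, with 43 in 1 of them, so the level rests on few cells. Without the 5 cells with most reads in each library, treated KO over KO no longer met the rule. Crybb2 was at 0.487, 1.47 and 0.41 CPM in treated KO, KO and WT Müller glia, from 17, 59 and 16 reads, and 43 of the 59 KO reads lay in the Ndufa4l2-led cluster 6. Too few molecule equivalents were counted for Crybb2 to enter the rule.

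Cryba2 was read in cones and in 1 bipolar cluster. Cones had 27, 14 and 0 reads in treated KO, KO and WT (4.22, 3 and 0 CPM), in 8, 6 and 0 cells. Bipolar cluster 19, led by Neto1, Nxph1 and Tacr3, of which Neto1 and Tacr3 are known from OFF cone bipolar cells, had 34 Cryba2 reads in 272 KO cells and 9 in 37 WT cells, or 5.98 and 11.1 CPM. Cryba1 had 32, 30 and 16 reads in treated KO, KO and WT, of which 29, 16 and 15 were in bipolar cells, at 0.767, 0.587 and 0.379 CPM. No class of these 2 genes reached the size the rule asks for.

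Cryab, Crybb1 and Crybb3 had at least 30 molecule equivalents in each library of Müller glia. Of these 3, Crybb1 was lower in treated KO than in KO by the rule, where 1.77% of 13827 genes were lower and 1.4% higher. For KO over WT 1 of 3 was higher (Crybb3), where 2.6% of 14205 genes were higher and 2.13% lower. For treated KO over WT 1 of 3 was lower (Crybb1), where 0.406% of 13781 genes were lower and 0.791% higher. Crygs is not counted, since it reached that minimum in KO alone, the library where it was high, and so could only be called higher there. No member was past the rule in any of the 3 comparisons after thinning, and within cluster 4 the counts were 0, 1 and 0. Thinning left a Crybb1 read in only 9, 28 and 26 Müller cells of treated KO, KO and WT. That put Crybb1 below 30 molecule equivalents, so the rule could not call it after thinning, whatever its ratio. Its thinned levels were 3.95, 12.6 and 8.24 CPM, still lowest in treated KO. Each library serves in 2 of the 3 comparisons, so the comparisons are not independent of each other.

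Over all kept cells the same 3 genes reached the minimum in each library. Crybb1 was lower in treated KO than in KO (ratio 0.24), where 4.83% of 18402 genes were lower and 2.34% higher. Crybb3 and Crybb1 were higher in KO than in WT (ratios 2.46 and 2.1), where 6.27% of 18716 genes were higher and 4.66% lower. None of the 3 was past the rule for treated KO over WT, where 1.49% were higher and 2.91% lower. Cryba4, with 49, 198 and 39 reads in treated KO, KO and WT, and Crygs, with 15, 105 and 1 reads, reached the minimum in KO alone and are given as values. All 3 comparisons over all cells also hold the class mix, microglia included.

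The sum of the 8 genes over all kept cells was 418 CPM in treated KO, 634 CPM in KO and 434 CPM in WT. Its ratio was 0.66 for treated KO over KO, 1.46 for KO over WT and 0.96 for treated KO over WT. With every cell thinned to 2000 reads and so weighted alike, KO over WT became 0.89 and treated KO over WT 0.65, below 1, in libraries whose Müller glia make up 14.6% and 15.6% of cells, against 29.4% in WT. Within Müller glia the thinned ratios of the sum kept their side of 1, at 0.71 for treated KO over KO and 1.14 for treated KO over WT.

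Signs of lens tissue were looked for beside these levels. Of 11 lens fibre genes 6 have a row, and their summed level in Müller glia was 15.5, 19.6 and 18.4 CPM in treated KO, KO and WT, nearly all of it Bfsp2, an intermediate filament gene, at 10.6, 11.7 and 14 CPM and Grifin, a lens galectin gene, at 3.81, 6.78 and 3.46 CPM. None of the 2 lens fibre genes with enough reads was past the rule in a Müller comparison, while over all kept cells Hsf4, a heat-shock factor of the lens, was lower in treated KO than in KO (0.35) and higher in KO than in WT (3.3), and Lgsn was at 0 in treated KO and WT Müller glia. Of 7 other γ-crystallin genes looked for, Cryga and Crygn have a row, with 0, 2 and 1 reads of Cryga and 5, 11 and 14 reads of Crygn in treated KO, KO and WT Müller glia. The part of lens RNA in the crystallin levels was not tested further.

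Markers of the pigment epithelium, which lies against the photoreceptors, were ordered in the opposite way in Müller glia. Their 11 genes with a row summed to 188, 52 and 111 CPM in treated KO, KO and WT, led by Ttr at 130, 25.9 and 57.7 CPM and Rgr, which Müller glia are also known to express, at 19, 6.33 and 20.9 CPM. By the rule 4 of 7 measured were higher in treated KO than in KO, where 1.4% of all genes were higher. In KO 3 of 6 were lower than in WT, where 2.13% of all genes were lower. In treated KO 2 of 8 were higher than in WT, where 0.791% of all genes were higher. In this and the other gene lists a gene counts as measured when the higher library alone reaches the minimum. Such a gene can enter only through the library where it is high, so the counts are a description only. The part of pigment epithelium RNA was not tested. Of 8 corneal, conjunctival and ciliary genes 4 have a row, and Krt18, which was at 112, 77.6 and 54.6 CPM, was the only one past the rule, for treated KO over WT.

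Among other small heat-shock proteins, Hspb1 was at 9.96, 18.9 and 7.74 CPM in treated KO, KO and WT Müller glia, and its ratio of 2.44 for KO over WT met the rule. Hspb6 followed the order of Cryab, at 62.7, 76.1 and 48.3 CPM, without meeting it. Of 12 heat-shock factors and targets 11 could be measured. Bag3, a co-chaperone that works with small heat-shock proteins, was the only one past the rule, at 36.6 CPM in KO and 15.6 CPM in WT. For KO over WT in Müller glia 2.6% of 14205 genes were past the rule upwards and 2.13% downwards. The abundant chaperones Hsp90aa1 and Hspa8 had ratios of 0.99 and 0.97 for KO over WT. Of 9 transcription factors of lens crystallin genes 6 could be measured and none met the rule in Müller glia, with Pax6 at 617, 594 and 634 CPM. Crym, a crystallin by name that binds thyroid hormone and 1 of the genes used to name the Müller class, was at 1648, 2589 and 1535 CPM, an order like that of Cryab, and its ratios of 0.64 for treated KO over KO and 1.69 for KO over WT stayed inside the rule.

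The genes whose levels ran most like each crystallin were named over 19 points, each a class with at least 50 cells in 1 library, by Pearson correlation of log2(CPM + 1). The points share libraries and class depth, so the values describe likeness only. Microglia form a single point, from KO with 81 cells, and the values of Cryba4 and Crybb1 rest largely on it. Genes close to Cryab were Pdlim3 (r = 0.97), Dapl1, Plpp3 and Cox4i2, and Crybb3 was closest to Stxbp6 (r = 0.96), Tbx3, Hunk, Ier5l and Evc. Cryba4 was closest to Lrrc25 (r = 0.99), Ptgs1, H2-Aa, Arhgap30 and Sla, and Crybb1 to E230013L22Rik (r = 0.99), Gal3st4, Gm11335, Gm35363 and Vill. Crygs had its highest value with Timp1 (r = 0.84), then Ptgfr, Gm10639, Gm35040 and Gm44436. The sum of the members was closest to Slc1a3, the glutamate transporter of Müller glia (r = 0.94), then Svbp, Ier2, Gm42941 and S1pr2.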

How the data were processed

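Per the labels' protocols, papain-dissociated retinas were made into Chromium 3′ libraries (kit v3), 1 per group. The submitters' processing notes name mm10 and Partek 9.0. The deposited tables hold estimated counts per gene and barcode, read so from the values: 2.34%, 2.33% and 2.39% of nonzero values in treated KO, KO and WT lay more than 0.001 from a whole number. The sources used here do not say whether reads were collapsed to molecules. Values were rounded to whole numbers and treated as reads, although the plan assumed molecules, and divided by 3.16, 2.76 and 2.73 for every interval and minimum.

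Barcodes with under 500 genes or over 20% mitochondrial reads were left out (918, 530 and 11), as were the 702, 882 and 296 ranked highest against simulated doublets, 7.87%, 8.61% and 4.87%, a share of 0.8% for each 1000 barcodes. No doublet caller's own threshold was used. Kept cells were clustered together (2000 variable genes, 40 principal components, Leiden, resolution 1, leidenalg 0.10.2, scikit-learn 1.9.0) into 46 clusters, and 44 were named from markers (at least 3 that were 2-fold higher and in 20% of cells). The 2 unnamed clusters stayed out of the class comparisons. Levels are CPM of a class, and intervals are exact Poisson, conditional binomial or Clopper-Pearson at 95% (scipy 1.17.1). Neither intervals nor limits cover differences between animals. The fold rule was tested on simulated data. Alternatives changed rounding, filters, doublets, denominator, top cells, depth, counting unit, scale, library level and clusters.

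The members, gene lists, markers and tests were chosen with earlier results of these data known. All members are described, list genes are named if past the rule or among the 2 most abundant, and the 5 most correlated genes are named as neighbours, except 1 that is not reported here. Clusters singled out were chosen after their values were seen.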

Additional observations from a re-analysis of the deposited data

Results flagged for a closer look

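Barcodes called doublets, which no comparison uses, carried 2 crystallins above the level in WT doublets. Cryab was at 392 CPM in treated KO, 571 CPM in KO and 432 CPM in WT doublets, and the KO value was flagged because its interval lies above that of WT. Crybb3 was flagged in both KO libraries, at 8.42 CPM in treated KO and 23.5 CPM in KO, against 3.5 CPM in WT. Cryab per Rlbp1 read in doublets was 0.382, 0.463 and 0.26, beside 0.382, 0.52 and 0.274 in Müller glia. The share of Müller glia among the cells that make up these doublets was not tested.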

How the results depend on the processing

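No paired analysis was possible because each group is 1 library, and for the same reason no replicate could be left out. Directions below are against the values in the report, and the cause of each shift was not tested. The ratio of the sum of the 8 genes for KO over WT went to below 1 over all kept cells when thinned, and in rods under both settings given for them. With every cell thinned to 2000 reads, the ratio of the sum over all kept cells was 0.735 for treated KO over KO, 0.891 for KO over WT and 0.655 for treated KO over WT. In the same setting the Müller sum gave 0.714 for treated KO over KO and 1.14 for treated KO over WT, the rod sum 0.483 for KO over WT and 0.309 for treated KO over WT, and the bipolar sum 1.41 for KO over WT and 1.07 for treated KO over WT. Counts of crystallins past the rule take in Crygs where KO alone brings it to the minimum, which gives 2, 2 and 1 in Müller glia as processed for the report. Thinning left 0 crystallins past the fold rule in Müller glia in all 3 comparisons and 0 in amacrine cells for treated KO over KO. Crybb1 in Müller glia and Crybb3 in treated KO amacrine cells were then below 30 molecule equivalents. Thinning therefore could not test whether their ratios pass the rule. It left 2, 4 and 1 pairs of gene and class above the library level in treated KO, KO and WT, against 5, 8 and 6, where 1 read in a thinned cell is worth 500 CPM. Within Müller cluster 4 the sum gave 1.65 for KO over WT and 1.16 for treated KO over WT, and 0, 1 and 0 crystallins were past the rule for treated KO over KO, KO over WT and treated KO over WT. Without the Müller clusters that carry photoreceptor markers, an alternative added after seeing the data, the sum gave 0.716 for treated KO over KO, 1.65 for KO over WT and 1.18 for treated KO over WT, with 0 and 1 crystallins past the rule in the first and the second. Rods without cluster 20, also added after seeing the data, gave 0.455 for treated KO over KO, 0.695 for KO over WT and 0.316 for treated KO over WT. The WT level there rests on 7 Cryab and 4 Crybb1 reads in 55 cells, with Cryab at 19.5 CPM (3.35 to 61.7). That interval holds the 9.17 CPM of treated KO and the 20.2 CPM of KO, so WT cannot be placed against them. With doublets kept, the bipolar sum gave 0.871 for treated KO over KO, and 1 crystallin was past the rule in cones for KO over WT and 1 for treated KO over WT. Without the 5 cells with most reads, amacrine cells had 0 past the rule for treated KO over KO and 1 for treated KO over WT. With each read taken as 1 count, bipolar cells had 2 for treated KO over KO and 1 for KO over WT, and amacrine cells 1 for KO over WT and 2 for treated KO over WT. That setting makes the minimum easier to reach and the intervals narrower for every gene. The shares of all genes given above belong to the main setting, so the counts under alternatives are a description only. Unrounded values and another denominator kept all 31 results each, and a bipolar library level and no barcode filter kept all 3 each. Depth limits Crygs, Crybb2, Cryba1, Cryba2, WT rods without cluster 20 and every value in microglia, mural and endothelial cells.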
